A study of Homo sapiens with 6 samples.

Results

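The nuclear genes for respiratory chain subunits were followed in OVCAR3 cells, an established line of human high-grade serous ovarian adenocarcinoma, in 3 cultures given the solvent DMSO and 3 cultures given 200 nM THZ531, each for 6 h. THZ531 is a covalent inhibitor of CDK12 and CDK13, kinases that phosphorylate the C-terminal domain of RNA polymerase II during elongation. The sample titles name THZ531, whereas the protocol field of the labels names a related compound, THZ1, at the same dose, and the titles were followed here. Polyadenylated RNA was sequenced, the series describes the 3 samples of each group as biological repeats, and a single cell line limits every comparison below to that line. Rows of the deposited gene table were taken as members when a gene symbol matched the names of complex I to V subunits (NDUFA, NDUFB, NDUFC, NDUFS and NDUFV with a number, NDUFAB1, SDHA to SDHD, UQCR, COX4 to COX8 and ATP5), lay outside the mitochondrial chromosome and did not carry a pseudogene ending. The names matched 91 rows, of which UQCRBP1 was left out as a pseudogene, leaving 90 members among 47577 rows.

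The respiratory chain sits in the inner mitochondrial membrane. Complexes I and II pass electrons from NADH and succinate to ubiquinone, complex III passes them to cytochrome c, complex IV hands them to oxygen, and complex V (ATP synthase) uses the proton gradient built by complexes I, III and IV to make ATP. Most subunits are encoded in the nucleus by short, highly expressed genes and imported as proteins, while a small core of complexes I, III, IV and V is encoded by mitochondrial DNA.

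The members comprised 37 rows of complex I, 4 of complex II, 9 of complex III, 19 of complex IV and 19 of complex V. The other 2, NDUFB2-AS1 and NDUFV2-AS1, matched by name but are antisense RNAs and encode no subunit. A normalized read count of at least 10 in at least 3 libraries was reached by 84 members, and by 17568 of all rows. The 6 members below it were COX4I2 and COX6A2, which were listed at 0 in all 6 libraries, COX7A1, COX6B2 and ATP5MGL, and the joint row of NDUFS1 and the pseudogene GCSHP3. COX7A1, COX4I2 and COX6A2 encode forms known from muscle, lung or heart. NDUFS1, the largest core subunit of complex I, could not be read here, because its joint row was listed at 0, 0.928 and 0.798 normalized reads in DMSO replicates 1 to 3 and at 0 in each THZ531 library.

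The 6 libraries held between 53054048 and 70986130 reads on genes. Epithelial and ovarian markers were present at high levels in both groups: KRT8 averaged 153783 ± 3185 normalized reads in DMSO and 230529 ± 2829 in THZ531 (SD, n = 3), and EPCAM, KRT7, KRT18, CDH1, MSLN, MUC16 and WT1 were also detected. Of 10 markers of other cell types, CD3E was at 0 in all 6 libraries, DCN did not exceed 3.19, and MYH7, ACTA1, PTPRC, COL1A2 and PECAM1 did not exceed 29.6, 43.2, 52.7, 70.5 and 86.5. CD68 averaged 404 ± 34.1 normalized reads in DMSO and 410 ± 43.2 in THZ531, and VWF averaged 89 ± 28.3 and 144 ± 5.48 (adjusted p = 0.0074). PAX8, a marker of the serous lineage, averaged 11272 ± 545 in DMSO and 1241 ± 121 in THZ531, and COL1A1, a fibroblast marker, averaged 995 ± 47.5 and 2190 ± 141. The part of these marker differences in the results below was not tested.

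On the deposited scaling most respiratory chain genes were modestly higher after THZ531. The median log2 fold change over the 84 tested members was 0.34 (a 1.27-fold difference), with the middle of the distribution between 0.23 and 0.46, beside a median of -0.01 over all loci tested with its middle between -0.63 and 0.42. The direction depended on the scaling of the libraries: the member median was 0.10 when each library was scaled to the same total and -0.15 when scaled to RPL34, a ribosomal protein gene used as a reference in the study. These scalings moved the median of all loci to -0.25 and -0.50. Relative to the median of all loci, the members stood 0.35 higher on the deposited scale, 0.35 higher at equal totals and 0.34 higher under RPL34. A scaling shifts every locus by nearly the same amount, so these differences are near-equal by construction and are not separate evidence. RPL34 itself had a log2 fold change of 0.49 on the deposited scale. In bulk RNA, fewer cells and less RNA per cell cannot be told apart, and the values below are on the deposited scale unless another is named.

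At an adjusted p of at most 0.05 and any fold, 75 of 84 members (89.3%) were higher, where 34.6% of all loci were, and 2 (2.38%) were lower, where 34.1% of all loci were. At equal library totals these counts were 42 and 8, where 21.9% of all loci were higher and 46.7% lower, and under RPL34 scaling they were 1 and 31, where 9.62% of all loci were higher and 58.2% lower. The THZ531 libraries lay above all DMSO libraries in 74 members (88.1%), where 36% of all loci did so, and below them in 2 (2.38%), where 35.7% did so. The size of the differences was small. At a fold of at least 1.5 with an unadjusted p of at most 0.05, 7 members (8.33%) were called higher, against a background of 15.7%, and 2 (2.38%) were called lower, against 23.9%. With all 6 libraries, no member reached a fold of 2 upwards. Leaving out DMSO replicate 1 raised the count of members called higher to 11 and put NDUFB2 at a log2 fold change of 1.03.

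**Figure D1:**
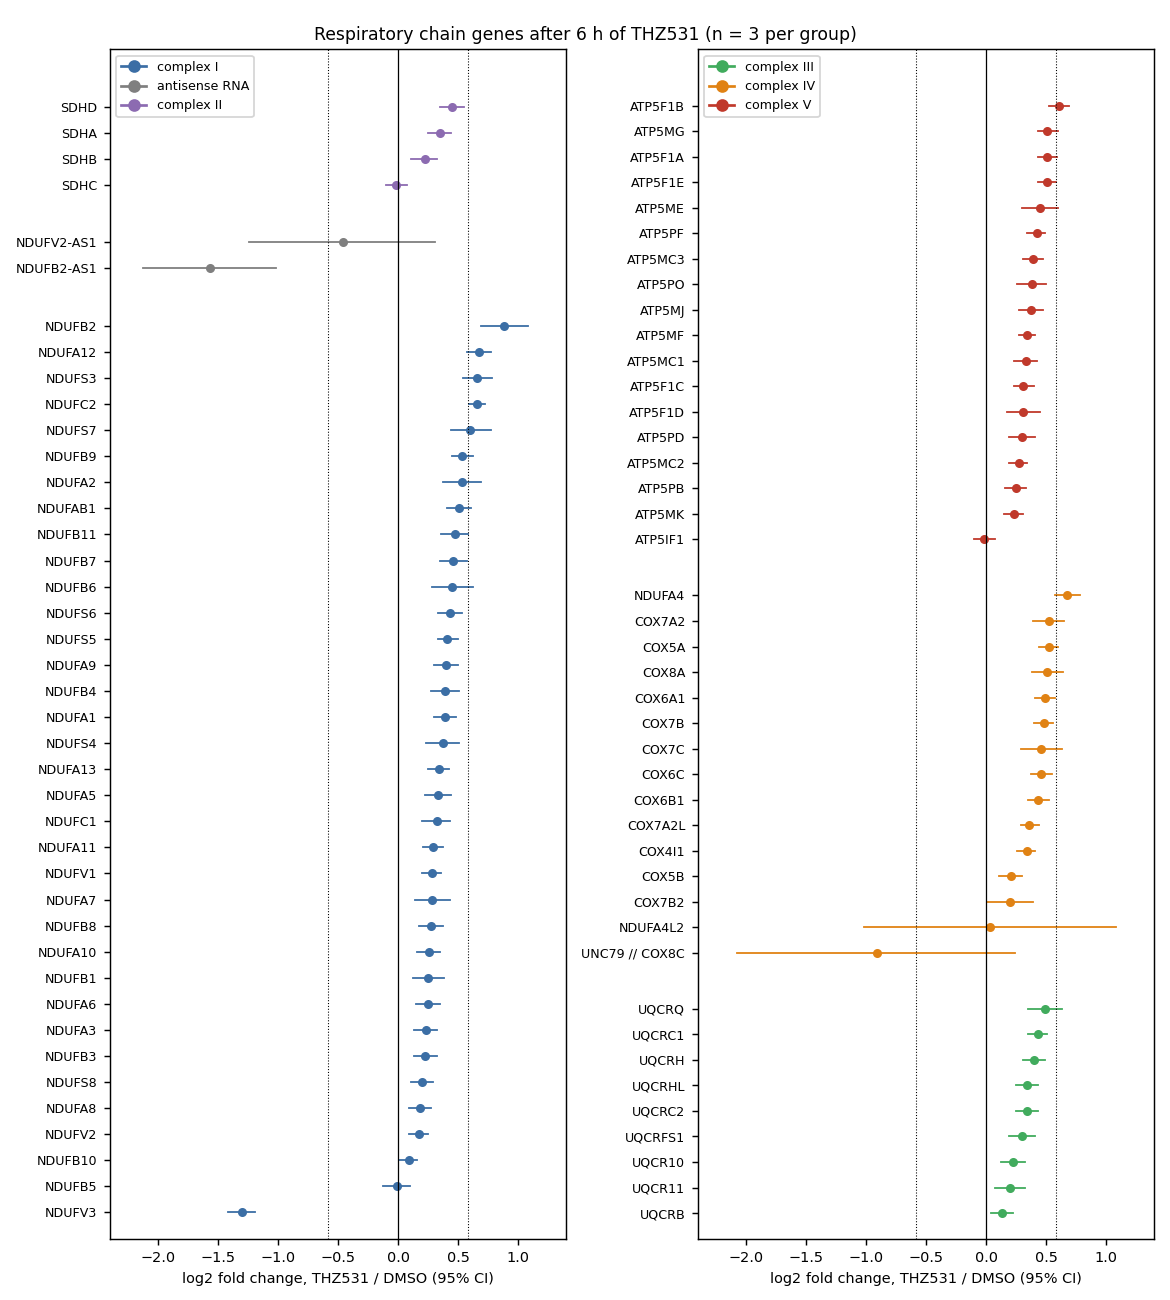
Log2 fold change (THZ531 over DMSO, deposited scaling) of the tested rows, 1 of them left out, each with its 95% confidence interval from limma, grouped by complex, with dotted lines at a fold of 1.5 in either direction. Most points lie between 0 and the upper dotted line and NDUFV3 and NDUFB2-AS1 lie far to the left, while under RPL34 scaling the medians of all 5 complexes fall below 0.

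The summed normalized reads of the 82 tested subunit rows were 561752, 550451 and 533487 in DMSO replicates 1 to 3 and 726571, 717995 and 713595 in the THZ531 libraries. The groups did not overlap, and the ratio of the means was 1.31. The sum was also taken as a share of all normalized reads, which amounts to scaling at equal totals. It made up 1.01%, 0.986% and 0.942% in DMSO and 1.09%, 1.09% and 1.08% in THZ531. The ratio of the sums was 1.29 for complex I, 1.19 for complex II, 1.26 for complex III, 1.34 for complex IV and 1.35 for complex V. Among loci with a DMSO mean of at least 2000, the median log2 fold change was 0.37 over 74 members and 0.18 over 4629 other loci. At an adjusted p of at most 0.05, 94.6% of these members were higher and 1.35% lower. Of the other loci at this level, 56.3% were higher and 28.6% lower, so the background was higher than over all loci.

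Complex I, the NADH dehydrogenase, had 36 tested rows with a median log2 fold change of 0.33 (0.09 at equal totals, -0.16 under RPL34). Of these, 34 (94.4%) were higher and 1 (2.78%) lower at an adjusted p of at most 0.05, where 34.6% and 34.1% of all loci were. Complex I also held 5 of the 7 members called higher (13.9% of its rows, where 15.7% of all loci were called). It held the only subunit gene called lower. In the N module, which oxidizes NADH, the median was 0.37 over 7 rows. In the Q module, where ubiquinone is reduced, it was 0.28 over 7 rows, and in the membrane arm it was 0.36 over 22 rows. NDUFA9 lies in the arm that reaches into the matrix and NDUFAB1 in both arms. Both were counted with the membrane arm, so these medians depend on the assignment.

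NDUFV3, an accessory subunit of the N module, was the exception. Its row (chr21:42879644-42913299, + strand, hg38, 4 exons in the MANE Select transcript) held 2633, 2621 and 2560 normalized reads in DMSO replicates 1 to 3 and 1084, 1047 and 1031 in the THZ531 libraries. All 3 DMSO libraries lay above 2 times the highest THZ531 library, and the groups were far apart relative to their spread. The log2 fold change was -1.30 (SE 0.05, 95% confidence interval -1.42 to -1.19, adjusted p = 7.7e-12 by limma), a 2.47-fold lower level. It was between -1.33 and -1.29 when any library was left out, -1.55 at equal totals and -1.80 under RPL34. Per kb of MANE Select transcript it was at the bottom of 80 ranked members in DMSO, at 455 ± 6.83 normalized reads per kb where the median member had 5428. NDUFA9 was level with it within the spread (457 ± 26.5). The rank rests on a transcript of 5725 bases, where the median member has 750.

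The 6 other tested N module subunits did not fall on the deposited scale, where all 6 were higher at an adjusted p of at most 0.05. NDUFV1, which carries the flavin that accepts electrons from NADH, held 7224, 7182 and 6807 reads in DMSO and 8684, 8661 and 8452 in THZ531. Its THZ531 libraries were all higher, by 0.28 on the log2 scale (SE 0.04, adjusted p = 6.8e-06), although the difference was 0.04 at equal totals and -0.21 under RPL34. NDUFA12, an accessory subunit of the same module, held 3704, 3449 and 3601 reads in DMSO and 5596, 6036 and 5493 in THZ531. The groups were clearly separated, with a log2 fold change of 0.67 (SE 0.05, adjusted p = 3.4e-09).

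In the Q module, NDUFS3 and NDUFS7 passed the fold threshold. NDUFS3, a core subunit of the arm that reaches into the matrix, held 2976, 2787 and 2478 reads in DMSO and 4365, 4284 and 4357 in THZ531, a log2 fold change of 0.66 (SE 0.06, adjusted p = 4.2e-08). NDUFS7, which carries the last iron-sulfur cluster before ubiquinone, held 1346, 1121 and 1059 reads in DMSO and 1757, 1806 and 1766 in THZ531, a log2 fold change of 0.60 (SE 0.08, adjusted p = 3.3e-06). In both genes DMSO replicate 1 was the highest and replicate 3 the lowest of the controls, yet the groups did not overlap.

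In the membrane arm the largest rise of all members was that of NDUFB2, an accessory subunit. Its row (chr7:140696681-140706646, + strand) held 3144, 2527 and 2146 reads in DMSO and 4839, 4735 and 4668 in THZ531. The controls were spread widely, with the largest coefficient of variation of the 80 members ranked (19.3% where the median member had 4.8%), but none reached the lowest THZ531 library. The log2 fold change was 0.88 (SE 0.09, 95% confidence interval 0.69 to 1.08, adjusted p = 3.3e-07), and it was 1.03 without DMSO replicate 1 and 0.75 without DMSO replicate 3. NDUFB2 was also the only member called higher at equal totals (0.64), and it stood at 0.39 under RPL34.

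NDUFB2-AS1, transcribed from the opposite strand (chr7:140695336-140697077), overlaps the NDUFB2 row by 397 bases and went the other way. It held 175, 106 and 128 reads in DMSO and 52.9, 50 and 33 in THZ531. The highest THZ531 library lay under the lowest DMSO library, and the log2 fold change was -1.57 (SE 0.26, adjusted p = 5.3e-05). The library kit marks strand, but the strand setting of the counting was not given in the sources used here, so reads of the shared bases may have been counted for either row. NDUFV2-AS1, on the opposite strand of NDUFV2, averaged 39.6 ± 14.1 reads in DMSO and 27.4 ± 4.93 in THZ531, and the groups overlapped (log2 fold change -0.46, SE 0.36, adjusted p = 0.27).

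NDUFC2, a small subunit of the membrane arm, held 29478, 29595 and 28701 reads in DMSO and 46330, 46605 and 45343 in THZ531. Its libraries were tight within groups and far apart between them (log2 fold change 0.66, SE 0.03, adjusted p = 3.9e-11). At the other end of the arm, NDUFB5 averaged 3317 ± 164 reads in DMSO and 3292 ± 191 in THZ531, with overlapping groups, a log2 fold change of -0.01 and a 95% confidence interval of -0.13 to 0.10 (adjusted p = 0.86). NDUFB10, which had the highest DMSO level per kb of all ranked members (31722 ± 987), rose by only 0.09 on the log2 scale (adjusted p = 0.033).

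**Figure D2:**
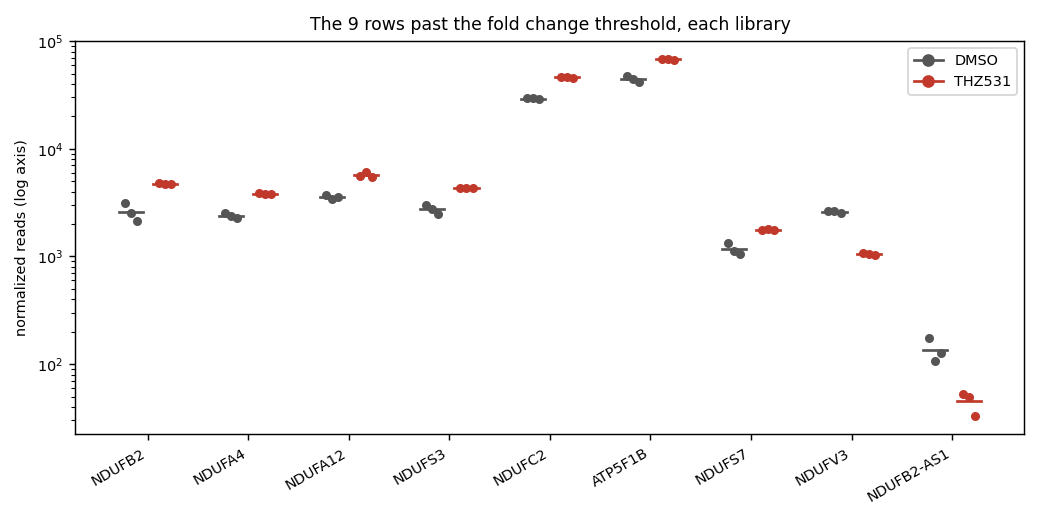
Normalized reads (log axis) of the 9 rows past the fold threshold of 1.5, with each library as a point and each group mean as a line, for 3 DMSO and 3 THZ531 libraries. The groups do not overlap in any of the 9 rows, and NDUFV3 and NDUFB2-AS1 are the rows where THZ531 is the lower group. Under RPL34 scaling none of the 7 higher rows passes the fold threshold.

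Complex II, succinate dehydrogenase, is encoded wholly in the nucleus, and its 4 genes did not move alike. SDHA, the flavoprotein that oxidizes succinate, held 4674, 4666 and 4349 reads in DMSO and 5680, 5679 and 6060 in THZ531 (log2 fold change 0.35, SE 0.04, adjusted p = 3.9e-06). SDHB, the iron-sulfur subunit, held 4719, 5348 and 5090 in DMSO and 5775, 6096 and 5709 in THZ531 (0.22, SE 0.05, adjusted p = 9.4e-04). For these genes every THZ531 library lay above every DMSO library, although SDHB was at -0.03 at equal totals and both were below 0 under RPL34.

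SDHC and SDHD together anchor the enzyme in the membrane and bind heme and ubiquinone. SDHD held 4817, 4448 and 4270 reads in DMSO and 6200, 6279 and 5955 in THZ531, a log2 fold change of 0.45 (SE 0.05, adjusted p = 4.2e-07) that fell to -0.05 under RPL34. SDHC held 4848, 4859 and 5065 reads in DMSO and 4773, 4988 and 4832 in THZ531, with overlapping groups (log2 fold change -0.02, 95% confidence interval -0.10 to 0.07, adjusted p = 0.72). The interval of SDHC ended below those of SDHA and SDHD, which began at 0.25 and 0.35, and below that of SDHB, which began at 0.11. At equal totals SDHC stood at -0.26 and passed the test as lower.

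All 9 tested rows of complex III were higher at an adjusted p of at most 0.05 on the deposited scale, where 34.6% of all loci were. Their median was 0.34 (0.09 at equal totals, -0.16 under RPL34). CYC1, the cytochrome c1 subunit of complex III, was not matched by the names and is counted in another list below. It was higher by 0.22 on the log2 scale (adjusted p = 8.9e-05 by limma). UQCRQ, a small subunit near the cytochrome b core, had the largest difference. It held 5706, 5037 and 4431 reads in DMSO and 7289, 6923 and 6948 in THZ531, a log2 fold change of 0.49 (SE 0.07, adjusted p = 7.0e-06). UQCRB, which binds near the ubiquinone site, had the smallest, with 11130, 12155 and 12394 reads in DMSO and 12985, 13111 and 12942 in THZ531 (0.13, SE 0.04, adjusted p = 0.0096). The groups still did not overlap, but the sign of UQCRB turned at equal totals (-0.11).

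UQCRC1, a core protein of complex III, held 20879, 20273 and 19062 reads in DMSO and 27023, 26631 and 27360 in THZ531 (log2 fold change 0.43, SE 0.04, adjusted p = 3.6e-08). UQCRFS1, the Rieske iron-sulfur protein, held 3080, 2707 and 2812 in DMSO and 3639, 3424 and 3499 in THZ531 (0.30, SE 0.05, adjusted p = 1.1e-04). Both differences were larger than the spread of the controls, and both were below 0 under RPL34. UQCRHL is an intronless copy of UQCRH, the hinge protein, and the rows had near-equal counts (6773 ± 300 and 6975 ± 363 reads in DMSO). Reads shared by such copies can be assigned to either, so the separate values of UQCRHL (0.34) and UQCRH (0.40) are uncertain.

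Complex IV, cytochrome c oxidase, had the highest median of the 5 complexes, 0.46 over 15 tested rows (0.22 at equal totals, -0.03 under RPL34). Of these rows, 12 (80%) were higher and none lower at an adjusted p of at most 0.05, where 34.6% and 34.1% of all loci were. The largest rise was that of NDUFA4, a subunit first assigned to complex I and now placed in complex IV. It held 2524, 2396 and 2272 reads in DMSO and 3854, 3812 and 3790 in THZ531 (log2 fold change 0.67, SE 0.05, adjusted p = 5.0e-09). The THZ531 libraries were closely grouped and all above the controls.

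The 3 rows of complex IV that did not pass were COX7B2, NDUFA4L2 and the joint row of UNC79 and COX8C. COX7B2 held 1597, 1291 and 1187 reads in DMSO and 1649, 1511 and 1485 in THZ531, and the groups overlapped (0.20, adjusted p = 0.057). NDUFA4L2 averaged 25.9 ± 8.98 and 30.7 ± 22 reads and the joint COX8C row averaged 16.3 ± 3.1 and 8.88 ± 5.18 (adjusted p = 0.96 and 0.15). Their wide 95% confidence intervals, -1.02 to 1.08 and -2.07 to 0.24, include 0. NDUFA4L2 lies wholly inside the STAT6 row on the same strand, and the joint row spans 375 kb of both genes, so neither count can be assigned to the subunit alone. Under RPL34 the joint row was at -1.36 and passed the test as lower.

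Several subunits of complexes IV and V exist in forms encoded by separate genes, which can be compared per kb of MANE Select transcript. The liver-type or general forms COX4I1, COX6A1 and COX6B1 made up 100% of their families to 3 digits in every library, and COX6B2 did not exceed 0.0218%. COX4I1, which joins early in the assembly of complex IV, held 19907, 20225 and 19739 reads in DMSO and 25591, 24305 and 25738 in THZ531 (log2 fold change 0.34, adjusted p = 2.3e-07). COX6A1 differed by 0.49 (adjusted p = 1.2e-08), COX6B1 by 0.43 (adjusted p = 1.1e-07) and COX8A by 0.51 (adjusted p = 1.5e-06), while COX4I1, COX6A1 and COX6B1 were below 0 under RPL34.

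Among the COX7A forms, COX7A2 averaged 76.6% of the family in DMSO and 78.6% in THZ531. COX7A2L, which takes part in joining complexes III and IV into supercomplexes, made up the rest at 23.4% and 21.4%. The split depends on the transcript lengths used (462 bases for COX7A2 and 2282 for COX7A2L). Before division by length, COX7A2L was the higher in DMSO, at 8706 ± 21.3 reads beside 5811 ± 670 for COX7A2. COX7A2 was higher by 0.52 (SE 0.06, adjusted p = 1.1e-06) and COX7A2L by 0.36 (SE 0.04, adjusted p = 2.0e-07), the latter turning to -0.13 under RPL34. COX7B2 was singled out after its values were seen: it is known mainly from testis, and it made up 54.1%, 47.5% and 45.3% of the summed COX7B and COX7B2 level per kb in DMSO and 45.9%, 43.7% and 43.1% in THZ531. The ranges of these shares overlapped, and they depend on the transcript lengths used (2444 bases for COX7B and 556 for COX7B2).

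Complex V had 18 tested rows with a median of 0.36 (0.11 at equal totals, -0.14 under RPL34). Of these rows, 17 (94.4%) were higher and none lower at an adjusted p of at most 0.05, where 34.6% and 34.1% of all loci were. The 5 subunits of F1, the catalytic head, had a median of 0.51 and the 12 of the membrane sector and stalk had 0.36. ATP5F1B, the catalytic beta subunit, held 47298, 44151 and 41867 reads in DMSO and 67761, 68815 and 66630 in THZ531. The groups were well separated, with a log2 fold change of 0.61 (SE 0.04, adjusted p = 1.4e-09). ATP5F1A, the alpha subunit beside it in the head, held 9782, 9223 and 9059 reads in DMSO and 13400, 13181 and 13350 in THZ531 (0.51, SE 0.04, adjusted p = 5.8e-09).

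ATP5IF1, which blocks ATP hydrolysis by the enzyme when the proton gradient is lost, did not follow the subunits. It held 4329, 4455 and 4558 reads in DMSO and 4423, 4462 and 4316 in THZ531, with overlapping groups and a log2 fold change of -0.02 (95% confidence interval -0.10 to 0.07, adjusted p = 0.76). The intervals of all 17 other tested rows of complex V began above this interval's upper bound of 0.07, the lowest at 0.15 (ATP5MK). At equal totals ATP5IF1 stood at -0.26 and passed the test as lower.

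ATP5MC1, ATP5MC2 and ATP5MC3 encode the same mature c subunit of the proton-driven ring with different import sequences. ATP5MC2 made up 57.5% of their summed level per kb in DMSO and 56.1% in THZ531, ATP5MC1 27.8% and 28.3%, and ATP5MC3 14.7% and 15.6%. All 3 were higher on the deposited scale, by 0.33 for ATP5MC1 (adjusted p = 1.1e-05), 0.27 for ATP5MC2 (adjusted p = 5.6e-06) and 0.39 for ATP5MC3 (adjusted p = 2.4e-07), and all 3 were lower under RPL34. The order of the 3 shares was the same in every library. These shares depend on the transcript lengths used (646 bases for ATP5MC1, 632 for ATP5MC2 and 2587 for ATP5MC3). Before division by length, ATP5MC3 averaged 11295 ± 525 reads in DMSO, ATP5MC2 10812 ± 295 and ATP5MC1 5351 ± 317.

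Transcripts of long genes take longer to complete, so the members were also set out by span. The median log2 fold change was 0.37 over 41 rows below 10 kb, 0.39 over 22 rows from 10 to 20 kb, 0.35 over 13 rows from 20 to 50 kb and 0.23 over 6 rows above 50 kb, where all loci with a gene symbol had medians of 0.07, -0.08, -0.03 and -0.04. The member medians cover rows of every level. Loci outside the members with a DMSO mean of at least 2000 had medians of 0.17, 0.16, 0.19 and 0.17. NDUFA10, at 133 kb, held 3092, 3217 and 3265 reads in DMSO and 3877, 3851 and 3720 in THZ531 and was among the long genes that were higher (0.26, adjusted p = 8.1e-05). NDUFV3, at 33.7 kb, was longer than most members, whose median span was 10248 bases over 80 ranked rows. The part of span in its fall was not tested.

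**Figure D3:**
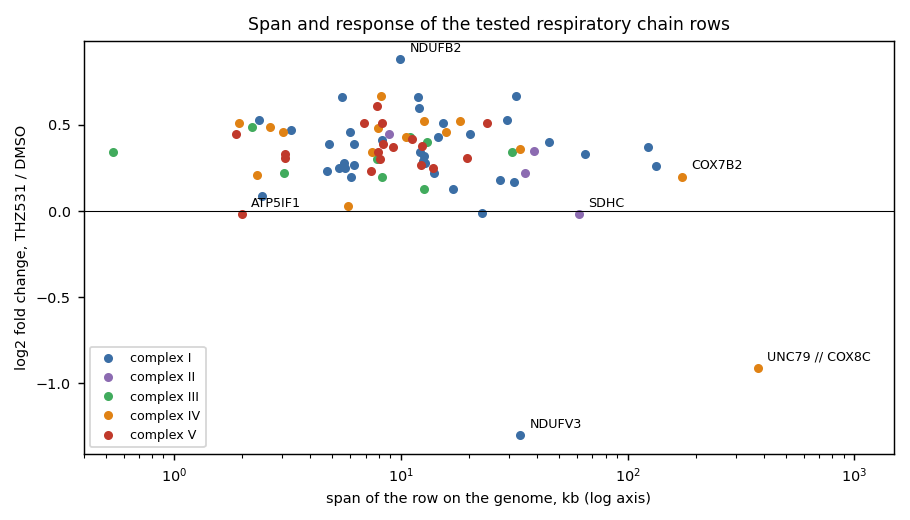
Span of each tested subunit row on the genome (kb, log axis) against its log2 fold change (THZ531 over DMSO, deposited scaling), coloured by complex. The medians of the span classes lie between 0.23 and 0.39, and NDUFV3 at 33.7 kb and the joint row of UNC79 and COX8C at 375 kb are the rows far below 0. Under RPL34 scaling the medians of all 5 complexes lie below 0.

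Many promoters of respiratory chain genes are known to bind NRF1, the ETS factor GABPA or YY1. RefSeq promoter windows (250 bases before to 50 after a start, GRCh38.p14) were matched to 68 member genes, and the letters CGCATGCGC for NRF1, CCGGAAGT for GABPA and AAGATGGCG for YY1 were searched on both strands. The NRF1 letters occurred in windows of 11 genes (16.2%), where 3.94% of all tested genes and 1.92% of all 35116 windows held them. The GABPA letters occurred in 11 genes (16.2%), where the shares were 9.04% and 4.14%, and the YY1 letters in 9 (13.2%), where they were 4.34% and 1.75%. A match of letters is a description and not a bound site.

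The following windows, all upstream of the start and outside annotated exons, are shown as examples of members that hold the NRF1 or GABPA letters, with the matched letters in capitals. COX6A1 (chr12:120437864-120437932) and NDUFB4 (chr3:120596147-120596216) hold NRF1 letters, and UQCRH (chr1:46303621-46303688), COX5B (chr2:97645995-97646061) and COX8A (chr11:63974571-63974619) hold GABPA letters, each on the + strand of GRCh38.p14 and written 5′ to 3′. In NDUFB4 the capitals cover 2 overlapping matches, 1 on each strand.
COX6A1: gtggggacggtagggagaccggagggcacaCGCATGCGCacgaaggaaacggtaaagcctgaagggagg
NDUFB4: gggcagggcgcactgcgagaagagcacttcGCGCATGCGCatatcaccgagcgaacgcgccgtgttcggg
UQCRH: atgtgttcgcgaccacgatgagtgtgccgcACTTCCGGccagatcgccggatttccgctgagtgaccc
COX5B: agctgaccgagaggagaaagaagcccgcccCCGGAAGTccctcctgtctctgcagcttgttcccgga
COX8A: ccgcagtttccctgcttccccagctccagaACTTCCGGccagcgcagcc

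The medians of members with and without these letters lay close together, and no test was made. The median log2 fold change was 0.42 over 11 genes with the NRF1 letters (range 0.18 to 0.60) and 0.34 over 55 tested genes without them. It was 0.40 with the GABPA letters (range 0.20 to 0.51) and 0.35 without, and 0.37 with the YY1 letters (range 0.22 to 0.60) and 0.35 without. NDUFV3 and NDUFB2, the members with the largest fall and the largest rise among the subunits, held none of the 3 in the windows searched.

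The factors themselves belong to a list of 12 regulators of mitochondrial biogenesis. At an adjusted p of at most 0.05, 9 (75%) were higher and 2 (16.7%) lower, where 34.6% and 34.1% of all loci were. The median log2 fold change was 0.52 (0.28 at equal totals, 0.03 under RPL34). GABPA, the DNA-binding subunit of the ETS factor, had the largest rise, from 1080 ± 27.8 to 1912 ± 108 reads (0.82, adjusted p = 6.4e-09). Its partner GABPB1 fell from 1371 ± 135 to 701 ± 51.7 (-0.97, adjusted p = 3.5e-08). ESRRA, an orphan nuclear receptor that acts with the PGC-1 coactivators, had the largest fall, from 2660 ± 275 to 931 ± 25.1 (-1.51, adjusted p = 3.0e-11). GABPA overlaps ATP5PF on the opposite strand by 1105 bases.

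Assembly factors are the proteins that build the complexes. Of 55 tested, 23 (41.8%) were higher and 20 (36.4%) lower at an adjusted p of at most 0.05, shares near the 34.6% and 34.1% of all loci, and the median was 0.12 (-0.13 at equal totals, -0.38 under RPL34). The largest fall was in the joint row of KAT14 and PET117, a factor of complex IV (-2.26, from 337 ± 9.85 to 69.7 ± 2.72 reads), where the genes cannot be told apart. The largest rise was in the joint row of TYMP and SCO2, a copper chaperone of complex IV (0.97, from 80.1 ± 3.12 to 159 ± 22.6 reads). A further list held 7 genes for electron carriers, COQ10 proteins and CYC1. Of these, 3 (42.9%) were higher and 1 (14.3%) was lower, where 34.6% and 34.1% of all loci were. Their median was 0.07 (-0.17 at equal totals, -0.42 under RPL34). The largest rise was in ETFA (0.48) and the largest fall in ETFDH (-0.33), the flavoproteins that feed electrons from fatty acid oxidation.

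The mitochondrial ribosomal proteins make the subunits encoded by mitochondrial DNA. Of 79 tested rows, 31 were higher and 31 lower (39.2% in each direction, near the 34.6% and 34.1% of all loci), with a median of -0.02 (-0.26 at equal totals, -0.51 under RPL34), a largest rise of 0.65 in MRPL54 and a largest fall of -1.63 in the antisense RNA MRPL20-AS1. The cytosolic ribosomal proteins, also encoded by short and highly expressed genes, lay closer to the respiratory chain members. Of 85 tested, 82 (96.5%) were higher and 3 (3.53%) lower, where 34.6% and 34.1% of all loci were. Their median was 0.40 (0.16 at equal totals, -0.09 under RPL34), with a largest rise in RPL39 and a largest fall in RPL39L. The lists were compared by their counts and medians only.

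**Figure D4:**
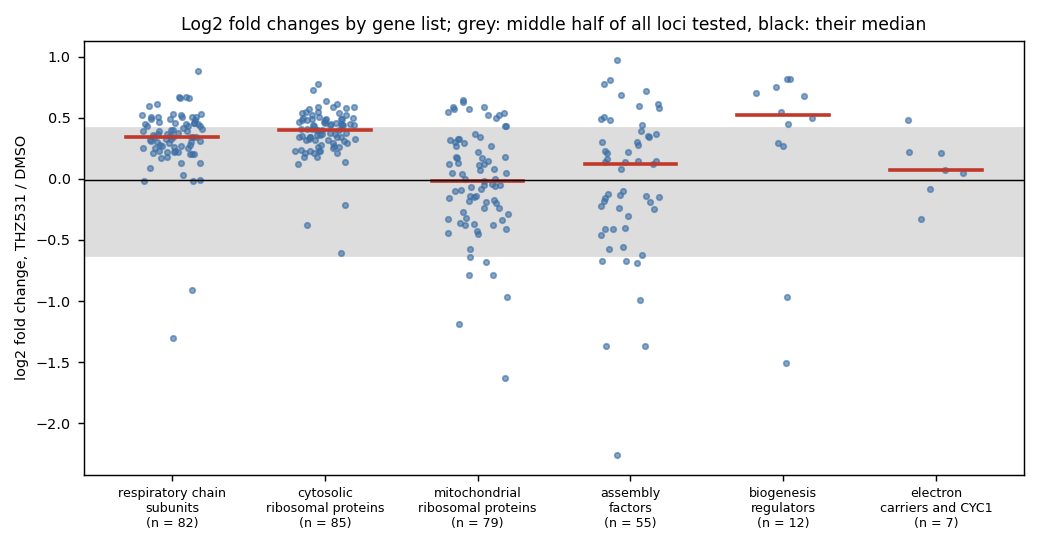
Log2 fold changes (THZ531 over DMSO, deposited scaling) of the tested genes of 6 lists, with the list median as a red line, the middle of all tested loci (-0.63 to 0.42) in grey and their median (-0.01) in black. The 82 subunit rows and the 85 cytosolic ribosomal protein rows lie mostly above 0, and the 79 mitochondrial ribosomal rows and 55 assembly factor rows spread to both sides. Under RPL34 scaling the member median is -0.15 and the medians of the other lists run from -0.51 to 0.03.

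The mitochondrial chromosome was covered by 17 rows without gene symbols. Some join several genes, and they take in ribosomal RNA and the non-coding control region beside the subunit genes, so their sum is not a sum of subunit transcripts. The summed normalized reads were 4707140, 5098550 and 5722239 in DMSO replicates 1 to 3 and 6007869, 6068338 and 5801669 in THZ531. The groups did not overlap and the ratio of the means was 1.15. As a share of all normalized reads the mitochondrial rows were at 8.5%, 9.14% and 10.1% in DMSO and 8.99%, 9.21% and 8.8% in THZ531, so that these shares did overlap.

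**Figure D5:**
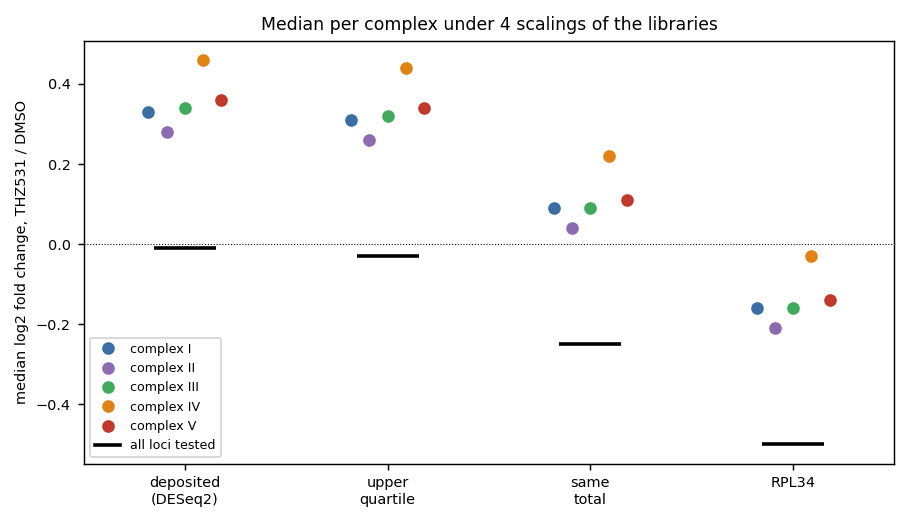
Median log2 fold change (THZ531 over DMSO) of each complex (points) and of all tested loci (black line) with the deposited scaling, upper-quartile scaling, equal library totals and scaling to RPL34. The points move down together with the black line, cross 0 only under RPL34, and stay above the line of all loci in each of the 4 scalings. Each scaling shifts all loci nearly alike, so the height above the line is nearly fixed by construction.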

How the data were processed

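The deposited table held a normalized count (signal) per FAST DB gene locus for each of the 6 libraries, made by the authors from polyadenylated RNA (TruSeq Stranded libraries) by mapping to hg38 with STAR (2.7.5a in the submitters' processing notes, another version in the methods), counting with featureCounts and scaling with DESeq2. Whole reads could be recovered from 100% of the values in each library (tolerance 0.01 read). These gave 53054048 to 70986130 reads on genes per library. The counts limit precision only at low levels, and such limits cover counting error only.

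The 17568 loci that reached 10 normalized reads in 3 or more libraries were tested with limma 3.58.1 (R 4.3.3, trended variance) on log2(value + 1), with all 6 libraries and no covariate. Fold changes are on that scale, which understates changes of low loci. Calls used the thresholds of the study (fold of at least 1.5, unadjusted p of at most 0.05), and adjusted p values are Benjamini-Hochberg over all 17568 loci. p values set the difference between groups against the spread between these cultures, with the variance of each locus drawn towards a trend over all loci. Lengths are those of MANE Select transcripts in GENCODE 44, matched by symbol and position. The script was tested on simulated data. Tried beside this were a pseudocount of 0.1 or 10, a minimum of 50 or none, 3 other scalings, a replicate block, no variance trend, edgeR 4.0.16 and DESeq2 1.42.0 on recovered reads, adjusted p, a fold of 2, rows with 1 symbol, and each library left out in turn.

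Members and lists were chosen with earlier results of these data known. The values of 1 member are not reported here, though it enters the counts and medians. Genes were named by rule: tested members past the call, the largest rise and fall per complex, the SDH genes, alternative forms of a subunit, core subunits and ATP5IF1, and, for other lists, at most 4 genes, namely the largest rise and fall and those past the call where 5 or fewer. GABPB1, NDUFB5, NDUFB10, NDUFA5, NDUFA9, NDUFA10, NDUFAB1, UQCRH, UQCRHL, CYC1, COX7B2 and RPL34 were named beside these after their values were seen.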

Additional observations from a re-analysis of the deposited data

How the results depend on the processing

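The scaling of the libraries was the choice that mattered. At equal totals 1 member was called higher and the member median was 0.10. With libraries scaled to RPL34, 0 members were called higher and 4 lower, the member median was -0.15, and 11 of 31 tested named members passed an adjusted p of at most 0.05 instead of 27. RPL34 scaling turned the medians of complexes I (-0.16), II (-0.21), III (-0.16), IV (-0.03) and V (-0.14) and the values of ATP5MC1 (-0.17), ATP5MC2 (-0.23), ATP5MC3 (-0.10), COX4I1 (-0.16), COX6A1 (-0.01), COX6B1 (-0.06), COX7A2L (-0.13), NDUFA4L2 (-0.44), NDUFV1 (-0.21), SDHA (-0.15), SDHB (-0.28), SDHD (-0.05), UQCRB (-0.36), UQCRC1 (-0.06), UQCRFS1 (-0.19) and UQCRQ (-0.01). Equal totals turned NDUFA4L2 (-0.20), SDHB (-0.03) and UQCRB (-0.11). Both settings shift every locus by construction.

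At a fold of 2 with all 6 libraries, 0 members were called higher. Leaving out each library in turn gave 5 to 11 members called higher, 2 to 3 called lower and a median of 0.34 to 0.36, with 11 called higher without DMSO replicate 1. NDUFA4L2 ranged from -0.50 to 0.58 and was below 0 without DMSO replicate 1 (-0.07), DMSO replicate 3 (-0.12) or THZ531 replicate 2 (-0.50). SDHC ranged from -0.04 to 0.00 and ATP5IF1 reached 0.00, both without DMSO replicate 3 at the upper end. edgeR on recovered reads called 6 members higher and 2 lower, and DESeq2 called 7 and 2. At an adjusted p of at most 0.05 and any fold, edgeR found 74 members higher and 2 lower, where 33.2% and 34.7% of all loci were.

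Same-numbered samples did not deviate together (correlations 0.00168, 0.0186 and -0.0393 for replicates 1 to 3), so the numbers were not taken as pairs. With the replicate block, 7 members were called higher, 2 lower, and the median was 0.34. The other pseudocounts, minimum values, variance model and upper-quartile scaling gave 6 or 7 called higher and 2 lower.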

Other observations

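The control libraries differed among themselves in the subunit genes. DMSO replicate 1 was the highest control in 48 of the 82 tested subunit rows and replicate 3 the lowest in 50, and the median log2 difference between them was 0.09. Over all loci tested it was 0.00, and over 302 loci with a MANE Select transcript under 700 bases it was 0.11. These 302 loci, 39 of them subunit rows, had a median log2 fold change of 0.38, beside 0.34 for the subunit rows. Over 10210 loci with a transcript of at least 2000 bases it was -0.05. Subunit rows under 700 bases had a median of 0.37 and those of at least 1500 bases 0.35. The part of transcript length in the member median was not tested. The median coefficient of variation of the members was 4.8% in DMSO and 2.33% in THZ531. The part of this spread in the fold changes was not tested, beyond the values without each library.

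The span of 25 of the 84 tested members met that of another tested row. ATP5F1E (log2 fold change 0.51) lies wholly within NELFCD (0.22) and ATP5PD (0.30) within KCTD2 (0.37), each on the opposite strand, so their counts depend on the strand setting of the counting. The other 59 tested members met no other tested row.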
